A study of Mus musculus with 11 samples.

Results

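The classical cadherins and their catenins are the core of the adherens junction, the contact that holds neighbouring keratinocytes together. A cadherin spans the membrane and binds the same or a related cadherin on the next cell. Inside the cell, β-catenin holds the distal cadherin tail and passes the pull to α-catenin and the actin cytoskeleton, whereas p120-catenin binds nearer to the membrane and keeps the cadherin at the surface. β-Catenin that is not held at the membrane or degraded can enter the nucleus and act with TCF/LEF factors in WNT signalling, a pathway that hair follicle stem cells (SC) depend on. The 5 genes followed here were chosen by name, *Cdh1* (E-cadherin), *Cdh3* (P-cadherin, a marker of hair germ cells), *Ctnnb1* (β-catenin), *Ctnna1* (αE-catenin) and *Ctnnd1* (p120-catenin). They are 5 of the 55536 Ensembl genes in the count tables, and all 5 were among the 20307 genes that passed the filter on low counts.

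The RNA came from dorsal skin epidermis of male CD4Cre R26-tdT mice on a C57Bl6/N background, in which cells that expressed the *Cd4*-driven Cre, and the descendants of these cells, carry the tdT reporter. The promoter of this Cre is also active in T cells, so tdT by itself does not define a keratinocyte. Cells were sorted into 4 groups: tdT+ and tdTneg CD49f+CD34+ cells without SCA-1 (bulge cells in the study, 3 libraries each), and tdT+ and tdTneg CD49f+CD34+SCA-1+ cells (3 and 2 libraries). Each library held the cells of 2 mice, aged 29 weeks for replicate 1 and 32 weeks for replicates 2 and 3. The replicate numbers were read as 3 pools of mice shared by the groups. Bulge and SCA-1+ are used below as short names for the populations without and with SCA-1.

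The libraries held between 17409131 and 46542177 counts on genes, and the member with the fewest counts, *Ctnnd1*, had 888 to 3572 per library. In the SCA-1+ population 6 of 6 bulge markers were lower (median log2 fold change −1.43, beside 6.79% of all tested genes called lower). One of them was *Cd34*, whose protein was gated positive in all groups, at 22.4 to 35.7 CPM (counts scaled to a common library size) in tdT+ SCA-1+, 320 and 383 in tdTneg SCA-1+ and 468 to 1130 in bulge libraries, so the mRNA did not follow the shared CD34+ gate. Of 5 basal keratinocyte markers 2 were higher and 3 were not called (median 0.31, beside 4.77% of all tested genes called higher). These were *Krt14* and, at a log2 fold change of 1.02, *Itga6*, which was under the fold threshold in 5 of 11 fits that left out 1 library (0.94 to 0.99), those without tdT+ bulge replicate 1, tdTneg bulge replicate 2, tdT+ SCA-1+ replicate 1 or 3, or tdTneg SCA-1+ replicate 1. Other cells were present as well. The summed level of 6 endothelial markers was 1466 and 1556 CPM in the tdTneg SCA-1+ libraries and 5.90 to 381 in the other 9, and the summed level of 6 T cell markers was 286 to 761 CPM in the tdT+ SCA-1+ libraries against 4.10 to 91.1 in the other 8. In the library labelled tdT+ bulge replicate 2, a row outside the Ensembl genes, which reached 133 to 307 CPM in the other tdT+ libraries, was at 2.05 CPM, below the 2.54 to 4.89 CPM of the tdTneg libraries. Values without that library are given beside the member results it enters most directly.

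E- and P-cadherin are neighbours on chromosome 8 (GRCm38, plus strand), *Cdh3* (ENSMUSG00000061048) at 106510891 to 106557297 and *Cdh1* (ENSMUSG00000000303) at 106603351 to 106670246. *Ctnnb1* (ENSMUSG00000006932) lies on chromosome 9 at 120929216 to 120960507 and *Ctnnd1* (ENSMUSG00000034101) on the minus strand of chromosome 2 at 84600071 to 84650765. Because related genes can share reads, the coding sequences of the closest pairs were compared. The longest identical run between *Cdh1* and *Cdh3* was 16 bases, in capitals in the following stretches from exon 5 of each gene (chr8:106653775-106653830 and chr8:106536827-106536882), of which 41 of 56 bases match.
Cdh1: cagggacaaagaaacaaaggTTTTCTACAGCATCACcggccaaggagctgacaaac
Cdh3: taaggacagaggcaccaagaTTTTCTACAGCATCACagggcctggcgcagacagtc
Between *Ctnnb1* and its relative *Jup* (plakoglobin) it was 20 bases, again in capitals (exon 7, chr9:120952902-120952961, and exon 6 on the minus strand, chr11:100380586-100380645), with 51 of 60 bases matching.
Ctnnb1: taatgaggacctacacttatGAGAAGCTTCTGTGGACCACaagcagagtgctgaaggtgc
Jup: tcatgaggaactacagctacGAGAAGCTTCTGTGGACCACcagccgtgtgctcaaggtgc
All 4 stretches are coding sequence, taken from the GENCODE transcripts. None of the 50-base windows of *Cdh1*, *Ctnnb1* or *Ctnnd1* transcripts was found in those of *Cdh3*, *Jup* or *Pkp4*, so that an error-free read of that length could not match both genes of a pair.

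Overlap with other genes was a larger limit than similarity. *Ctnnd1* shares 4482 of its 7319 exonic bases with the readthrough model *Gm28635* on the same strand, which was at 0 counts in all 11 libraries. How reads on shared bases were treated is not given in the sources used here. Had they been counted for both genes, *Gm28635* would have counts as well. The level of *Ctnnd1* may thus be understated against the other members. *Ctnnb1* shares 782 of 5192 bases, nearly all of them with *Ulk4* on the opposite strand, *Ctnna1* (ENSMUSG00000037815, chromosome 18, 35118859 to 35254779) shares 95 of 6425, and the cadherins share none.

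Per kilobase of exon, *Cdh1* and *Ctnnb1* were the most abundant members and were not separated. *Cdh1* was at 187 ± 73.1 and *Ctnnb1* at 162 ± 33.3 normalised CPM per kb (mean ± SD over 11 libraries), and *Cdh1* led in 7 libraries and *Ctnnb1* in 4. *Ctnna1* followed at 82.8 ± 8.33, *Cdh3* at 38.0 ± 8.35 and *Ctnnd1* at 9.63 ± 2.33 CPM per kb, in this order in 11 of 11 libraries and with ranges that did not touch. If no read on shared bases had been counted, the same counts over the remaining 2837 bases would put *Ctnnd1* at 24.9 ± 6.004 CPM per kb, with a range of 16.9 to 36.9 that overlapped the 26.4 to 50.5 of *Cdh3*. On the same assumption *Ctnnb1* would be at 191 ± 39.2.

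*Cdh1* ran from moderate to high in both populations. It was at 565, 706 and 996 normalised CPM in the tdT+ bulge libraries (replicates 1 to 3), at 656, 502 and 683 in tdTneg bulge, at 1008, 810 and 1733 in tdT+ SCA-1+ and at 892 and 858 in tdTneg SCA-1+ cells. The SCA-1+ libraries were mostly above the bulge libraries, but tdT+ bulge replicate 3 lay within their range. In sorted bulk cells, fewer cells with a transcript cannot be told apart from less of it per cell.
P-cadherin mRNA was found in every library at 116 to 221 normalised CPM. *Cdh3* was at 143, 116 and 198 in tdT+ bulge, 221, 194 and 190 in tdTneg bulge, 161, 128 and 205 in tdT+ SCA-1+, and 125 and 150 in tdTneg SCA-1+ libraries. Only the tdTneg groups were apart from each other, with bulge above SCA-1+.

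For β-catenin the tdT+ and tdTneg libraries did not overlap in either population, as for 16% of all tested genes in bulge and 33% in SCA-1+ cells. *Ctnnb1* was at 743, 705 and 897 normalised CPM in tdT+ bulge against 984, 1110 and 1086 in tdTneg bulge libraries. In SCA-1+ cells it was at 630.9, 721 and 629 with tdT and at 802 and 943 without. The tdT+ libraries were the lower ones in both.
αE-catenin was the steadiest member, from 426 to 598 normalised CPM over the 11 libraries. *Ctnna1* was at 426, 465.7 and 562 in tdT+ bulge, 538, 494 and 567 in tdTneg bulge, 584, 501 and 550 in tdT+ SCA-1+, and 565 and 598 in tdTneg SCA-1+ libraries, with overlap between all groups except tdT+ bulge and tdTneg SCA-1+.
p120-Catenin was the member with the fewest reads, and its values in tdT+ SCA-1+ cells spanned those of every other group but the lowest tdTneg bulge library. *Ctnnd1* was at 55.5, 61.5 and 66.9 in tdT+ bulge, 73.8, 47.8 and 70.8 in tdTneg bulge, 90.2, 50.4 and 105 in tdT+ SCA-1+, and 80.0 and 73.9 CPM in tdTneg SCA-1+ libraries.

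**Figure D1:**
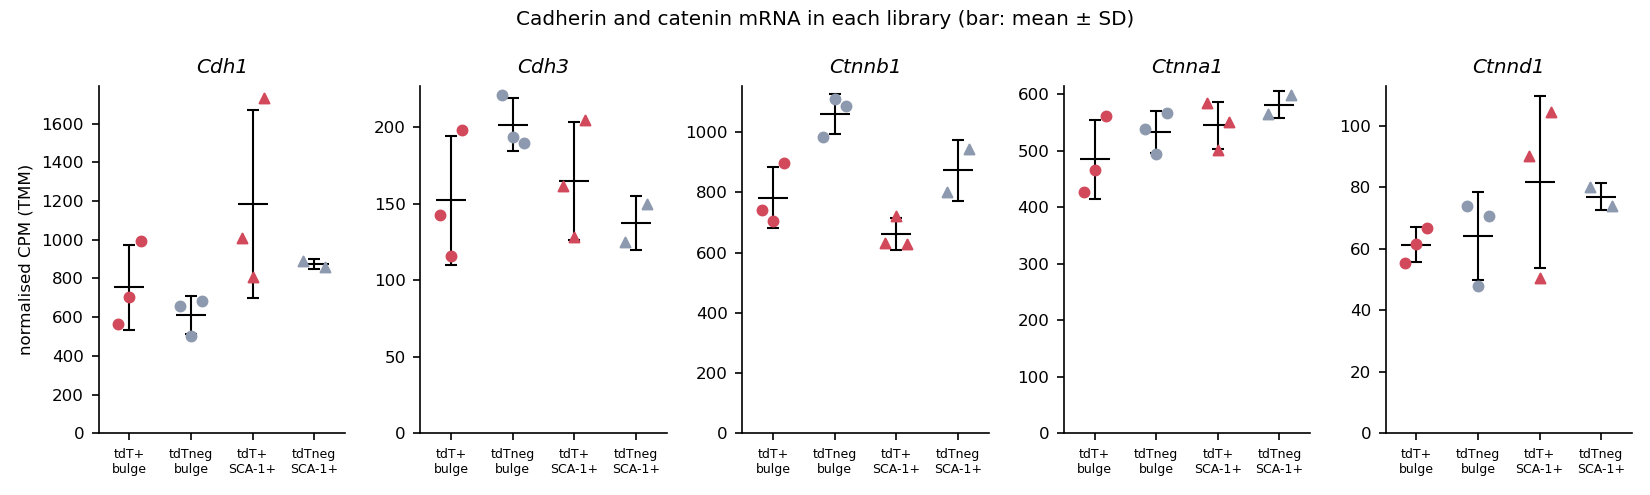
Normalised CPM (y axis, linear from 0) of the 5 members in each of the 11 libraries, by sorted group (x axis; circles bulge, triangles SCA-1+, red tdT+, grey tdTneg), with the group mean ± SD (n = 3, or 2 for tdTneg SCA-1+). The *Cdh1* value of 1733 in tdT+ SCA-1+ replicate 3 stands above the rest, and the *Ctnnb1* points of tdT+ and tdTneg cells do not overlap in either population.

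The populations were compared to ask whether the junction core differs between bulge and SCA-1+ cells. No member was called, where a call in edgeR's quasi-likelihood test needed a change of over 1 on the log2 scale either way at an adjusted p below 0.05, and 11.6% of all tested genes were called. Without the fold threshold 19.3% of genes passed, and again 0 of 5 members. *Cdh1* came nearest, with a log2 fold change of 0.58 ± 0.22 (SE, adjusted p = 0.0960, 95% interval 0.08 to 1.08) in SCA-1+ over bulge cells. Its adjusted p was 0.0189 with DESeq2 (0.61), 0.0230 with limma voom (0.60) and 0.0218 with the replicate number as a block (0.66), all under the fold threshold. Leaving out 1 library gave 0.39 to 0.70 with adjusted p from 0.0510 to 0.248. *Cdh3* had −0.22 ± 0.17 (adjusted p = 0.385), with an interval of −0.59 to 0.15. The catenins had −0.26 ± 0.12 (*Ctnnb1*, adjusted p = 0.145), 0.15 ± 0.11 (*Ctnna1*, adjusted p = 0.377) and 0.34 ± 0.19 (*Ctnnd1*, adjusted p = 0.239). For all members but *Cdh1* the interval excluded a 2-fold change in either direction. The median over the 5 members was 0.15, beside −0.09 over all tested genes, and at an unadjusted p under 0.05 there were 2 of 5 members (*Cdh1* and *Ctnnb1*) beside 34.4% of all tested genes. The 5 members' libraries overlapped between the populations, as did those of all but 10.8% of tested genes. Each member differed in the same direction among the libraries of 29-week and of 32-week mice, with *Cdh1* at 0.64 and 0.60 and *Cdh3* at −0.32 and −0.11 on the log2 scale.

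Within tdT+ and within tdTneg cells the members were again not called, beside 8.45% and 4.74% of tested genes. These shares are 1715 and 963 genes. They were 1174 to 2233 and 216 to 1300 genes when 1 library was left out and more than 1 stayed in each group. *Cdh1* had log2 fold changes of 0.65 ± 0.30 (adjusted p = 0.177) and 0.51 ± 0.33 (adjusted p = 0.416), and the first was 0.27 without tdT+ SCA-1+ replicate 3. *Cdh3* had 0.11 ± 0.22 (adjusted p = 0.771) within tdT+ cells and −0.55 ± 0.25 (adjusted p = 0.240, and 0.0292 with limma voom at −0.60) within tdTneg cells, and the difference of 0.67 ± 0.33 between these effects did not pass (adjusted p = 0.452, interval −0.07 to 1.41). Within tdTneg cells, where 3 libraries stood against 2, *Cdh1*, *Cdh3*, *Ctnnb1* and *Ctnnd1* did not overlap between the populations, and neither did 46.3% of all tested genes. Within tdT+ cells 0 members and 30.4% of genes were apart. Without the library labelled tdT+ bulge replicate 2 the value of *Cdh3* within tdT+ cells was −0.05. Within tdT+ cells the T cell marker sum was 286 to 761 CPM in SCA-1+ and 55.9 to 65.9 in bulge libraries, and the endothelial sum was 381 CPM in tdT+ bulge replicate 2. Within tdTneg cells the endothelial sum was 1466 and 1556 CPM in SCA-1+ and 30.5 to 97.8 in bulge libraries, and the Langerhans cell sum 637 and 684 against 16 to 70.1. Their part in these values was not tested.

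tdT+ and tdTneg cells were compared to ask whether descent from CD4-expressing cells goes with a different junction program. No member was called in bulge cells (0.00985% of tested genes called) or in SCA-1+ cells (2.31%). These shares are 2 and 470 genes. They were 0 to 7 and 267 to 700 genes when 1 library was left out and more than 1 stayed in each group. *Ctnnb1* was lower with tdT by a similar amount in both populations, with log2 fold changes of −0.44 ± 0.16 in bulge (interval −0.79 to −0.09) and −0.40 ± 0.17 in SCA-1+ cells (interval −0.79 to −0.02). Neither passed the correction over all genes (edgeR adjusted p = 0.486 and 0.318, unadjusted p = 0.0183 and 0.0424). All 3 tdT+ libraries lay below all tdTneg libraries in each population, which, as given above, is common at these group sizes. Without the library labelled tdT+ bulge replicate 2 the *Ctnnb1* value in bulge was −0.37 (adjusted p = 0.710). The other members ran from −0.40 (*Cdh3*) to 0.30 (*Cdh1*) in bulge and from −0.09 (*Ctnna1*) to 0.44 (*Cdh1*) in SCA-1+ cells, with adjusted p-values of at least 0.642. Without the library labelled tdT+ bulge replicate 2, *Cdh3* was at −0.24 and *Cdh1* at 0.35 in bulge. The *Cdh1* values rested on single libraries, being 0.05 in bulge without tdT+ bulge replicate 3 and 0.05 in SCA-1+ cells without tdT+ SCA-1+ replicate 3. Marker sums of other cells moved with tdT in both populations. In bulge the T cell sum was 55.9 to 65.9 CPM with tdT and 4.10 to 20.5 without, the Langerhans cell sum 71.1 to 347 and 16 to 70.1, the melanocyte sum 25.7 to 54.8 and 59.9 to 65.4, and the basal sum 16220 to 21600 and 24070 to 24340. The suprabasal sum overlapped, at 1544 to 4062 and 488 to 1700 CPM. In SCA-1+ cells, besides the T cell and endothelial sums given above, the Langerhans cell sum was 268 to 407 CPM with tdT and 637 and 684 without, the suprabasal sum 7088 to 9870 and 3019 and 6961, and the basal sum 30740 to 37330 and 22280 and 25250. The hair germ sum was 75.6 to 104 CPM with tdT and 158 and 221 without, and the bulge marker sum overlapped, at 3347 to 5479 and 4328 and 5313. In bulge libraries the hair germ and bulge marker sums overlapped between tdT+ and tdTneg cells. The part of all these sums in the member values was not tested.
The difference in the effect of tdT between the populations, for which 0.389% of genes were called, passed for 0 of 5 members. This share is 79 genes, and 23 to 376 were called when 1 library was left out and more than 1 stayed in each group. Over all 30 pairs of member and comparison, 22 had an interval that excluded a 2-fold change, and 4 had an unadjusted p under 0.05, which 8.42% to 34.4% of all tested genes had in each comparison.

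**Figure D2:**
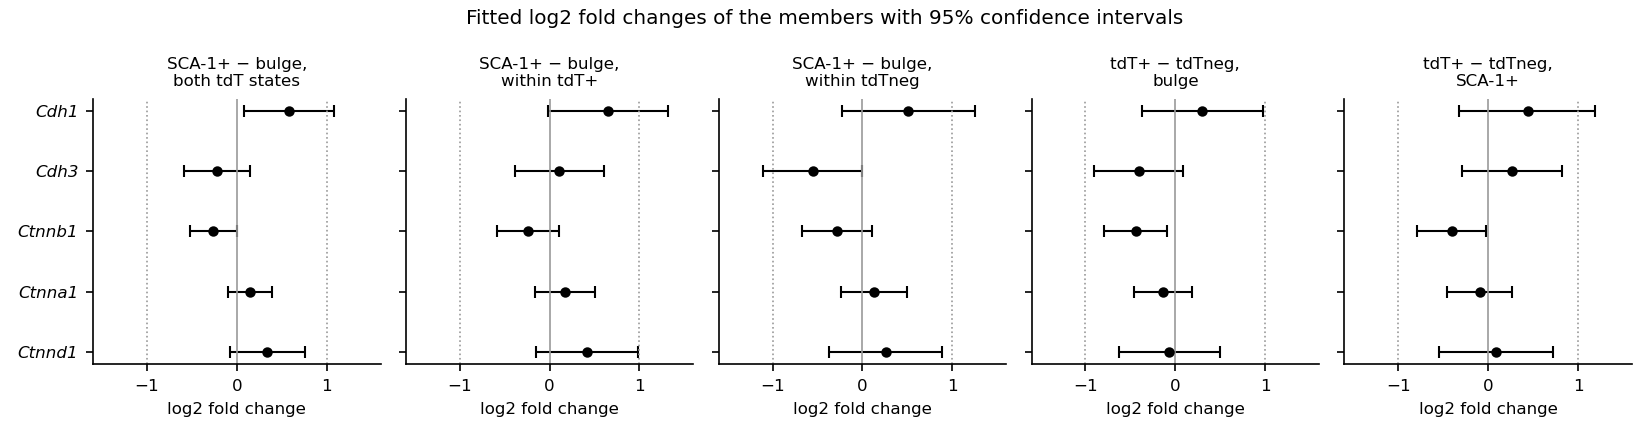
Log2 fold changes (x axis) of the 5 members with 95% confidence intervals from edgeR, in 5 comparisons (panels), with dotted lines at a 2-fold change either way. No interval lies wholly outside the dotted lines, and in both tdT panels the interval of *Ctnnb1* lies below 0.

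P-cadherin is used to mark hair germ cells, the progenitors below the bulge, so it was set beside 6 other hair germ markers. Of these, 4 were lower in SCA-1+ than in bulge cells and 0 were higher (background 6.79% lower and 4.77% higher), with a median log2 fold change of −1.37. *Lgr5*, an R-spondin receptor that marks follicle SC, was at 101 to 387 CPM in bulge and 7.74 to 61.6 in SCA-1+ libraries, and fell by 3.09 ± 0.31 on the log2 scale (SE, adjusted p = 0.000287). The Hedgehog mediator *Gli1* fell by 2.67 ± 0.36 (adjusted p = 0.00101) and the homeobox gene *Hoxc13* by 1.72 ± 0.26 (adjusted p = 0.00160). The Hedgehog receptor *Ptch1* fell by 1.02 ± 0.22 (adjusted p = 0.00981), a call lost under 9 of 18 alternatives, with values between the fold threshold and −0.89. These were DESeq2, RLE size factors, limma voom, the block, and the fits without tdT+ bulge replicate 1 or 3, tdTneg bulge replicate 3, tdT+ SCA-1+ replicate 1 or tdTneg SCA-1+ replicate 1. *Msx2* (0.15 ± 0.28) and *Shh* (0.66 ± 1.06, at most 2.28 CPM) were not called. *Cdh3* thus did not follow *Lgr5*, *Gli1* or *Hoxc13*, whose intervals lay entirely below that of *Cdh3* (upper bounds −2.40, −1.87 and −1.15 against a lower bound of −0.59). No group was sorted as hair germ cells, and 6 of 6 bulge markers were lower as well (median −1.43). These values therefore do not describe hair germ cells as such.

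**Figure D3:**
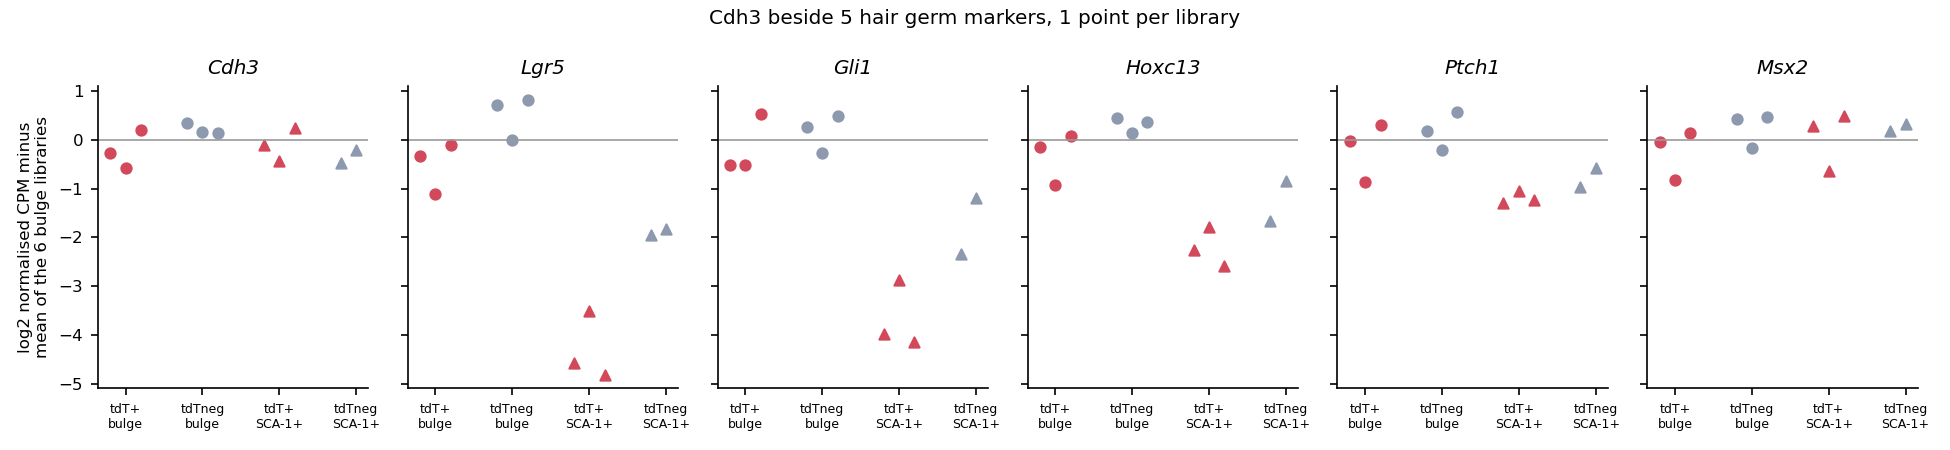
Log2 normalised CPM of *Cdh3* and 5 hair germ markers minus each gene's mean over the 6 bulge libraries (y axis), 1 point per library in the 4 sorted groups (x axis; circles bulge, triangles SCA-1+, red tdT+, grey tdTneg). The *Cdh3* points of the SCA-1+ libraries stay among the bulge points, those of *Lgr5* and *Gli1* lie below all bulge points, and those of *Hoxc13*, *Ptch1* and *Msx2* overlap them (*Shh*, at 0 in 1 library, has no log2 value there).

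The ratio of *Cdh3* to *Cdh1* within a library does not depend on library size and compares the balance of the 2 cadherins. For each 100 *Cdh1* counts there were 25.3, 16.4 and 19.9 *Cdh3* counts in tdT+ bulge, 33.7, 38.6 and 27.8 in tdTneg bulge, 16.02, 15.8 and 11.8 in tdT+ SCA-1+, and 14.01 and 17.4 in tdTneg SCA-1+ libraries. All SCA-1+ libraries were below all bulge libraries except tdT+ bulge replicate 2, which lay among them. The mean log2 ratio was −1.95 ± 0.46 (SD, n = 6) in bulge and −2.75 ± 0.22 (n = 5) in SCA-1+ cells, a difference of −0.80, or 0.576-fold (two-sided exact permutation test over 462 arrangements, p = 0.0108, adjusted over 3 tests p = 0.0325). The difference was −0.93 without tdT+ bulge replicate 2 (exact permutation p = 0.00794, adjusted p = 0.0238), and −0.96 and −0.71 within mice of 29 and of 32 weeks. With labels exchanged only within a replicate number, the exact permutation p was 0.0370, and adjusted over the same 3 tests it was 0.111, so the call did not hold under this pairing.
Between tdT+ and tdTneg bulge cells the ratio differed by −0.71, with all 3 tdT+ libraries below all 3 tdTneg libraries (exact permutation p = 0.1, adjusted p = 0.15, the smallest raw p that 20 arrangements allow being 0.1). Without tdT+ bulge replicate 2 it was −0.56 (exact permutation p = 0.2). In SCA-1+ cells the difference was −0.12 (exact permutation p = 0.7, of 10 arrangements), and it was 0.03 without tdT+ replicate 3 and 0.04 without tdTneg replicate 2.
*Ctnnb1* against *Cdh1*, a ratio chosen after its values were seen and therefore not tested, ran the same way. Its log2 value was 0.39, 0.00 and −0.15 in tdT+ bulge and 0.59, 1.15 and 0.67 in tdTneg bulge libraries, then −0.68, −0.17 and −1.46 in tdT+ SCA-1+ and −0.15 and 0.14 in tdTneg SCA-1+ libraries. *Ctnnb1* counts were thus above *Cdh1* counts in all tdTneg bulge libraries and below them in all tdT+ SCA-1+ libraries.

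**Figure D4:**
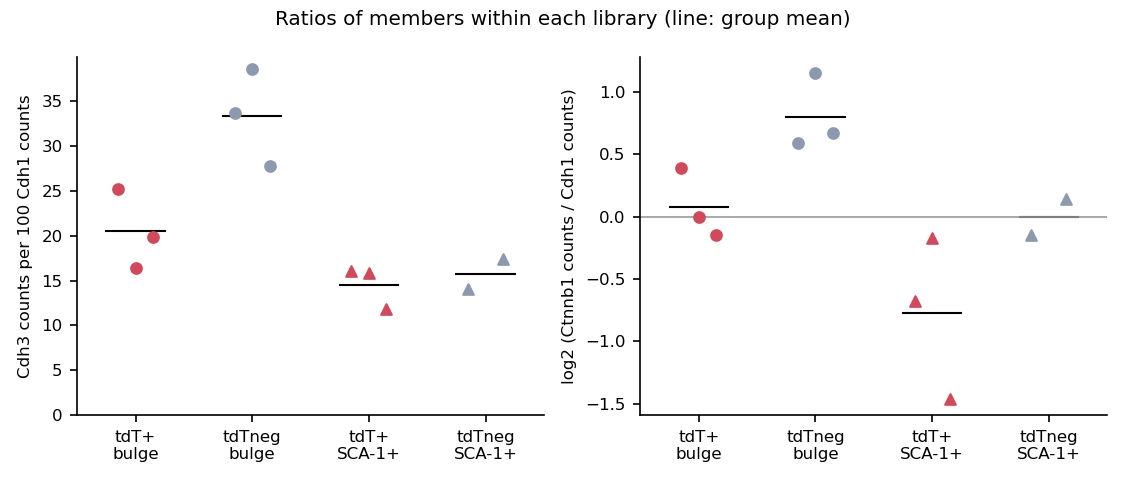
*Cdh3* counts per 100 *Cdh1* counts (left) and the log2 ratio of *Ctnnb1* to *Cdh1* counts (right) in each library by sorted group (circles bulge, triangles SCA-1+, red tdT+, grey tdTneg), with the group mean as a line. On the left the tdTneg bulge libraries, at 27.8 to 38.6, lie above all others, and on the right the tdT+ SCA-1+ libraries all lie below 0.

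The rest of the junction was read from lists of related genes. Beside them stand all tested genes, of which 4.77% were called higher and 6.79% lower between the populations, and 19.3% passed the adjusted p alone. Of 16 other classical cadherins 9 were measured well enough to test, and between the populations 1 was higher and 2 were lower. *Cdh4* (R-cadherin) was at 2.38 to 15.4 CPM in bulge and 15.96 to 42.2 in SCA-1+ libraries, without overlap, and rose by 2.43 ± 0.39 on the log2 scale (adjusted p = 0.00234). *Cdh11*, a cadherin of mesenchymal cells, was at most 7.56 CPM and fell by 2.12 ± 0.57 (adjusted p = 0.0285), a call lost in 6 of 11 fits that left out 1 library, which are those without tdT+ bulge replicate 1, tdTneg bulge replicates 1 or 3, tdT+ SCA-1+ replicates 1 or 3, or tdTneg SCA-1+ replicate 2.
*Cdh2* (N-cadherin) was uneven among bulge libraries. It had 1224, 402 and 569 counts in tdT+ replicates 1 and 2 and tdTneg replicate 2, but 8 to 18 counts in the other bulge libraries and 0 to 4 in the SCA-1+ libraries. Its fitted log2 fold change was −6.86 ± 1.69 (adjusted p = 0.0198), and was not called by limma voom (−4.80, adjusted p = 0.183) or without tdTneg SCA-1+ replicate 1 or 2 (adjusted p = 0.131 and 0.114). It was −4.77 without tdTneg bulge replicate 2 and −6.93 without tdT+ bulge replicate 2. *Zeb2*, a repressor of *Cdh1*, is named after its values were seen. It was at 27.9 to 31.0 CPM in the same 3 bulge libraries, 0.937 to 1.96 in the other bulge libraries and 3.68 to 33.0 in SCA-1+ libraries. The endothelial sum was 76.1 to 381 CPM in these 3 and 5.90 to 38.5 in the other bulge libraries, whereas the fibroblast sum overlapped, at 121 to 297 and 87.8 to 156 CPM. Their part in the *Cdh2* counts was not tested.
*Cdh5* (VE-cadherin), the cadherin of endothelium, was at 364 and 421 CPM in the tdTneg SCA-1+ libraries and at 0.386 to 87.4 elsewhere. It was not called between the populations (1.78 ± 0.89, adjusted p = 0.187), but was without tdT+ bulge replicate 2 (3.14, adjusted p = 0.0180). *Pecam1*, another endothelial gene, was at 688 and 728 CPM in the same tdTneg SCA-1+ libraries. *Cdh24* (4.94 to 13.8 CPM) and the other tested members of the list were not called.

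Among 7 further catenins, of which 6 were tested, 2 were higher and 1 was lower in SCA-1+ cells, with a median log2 fold change of 0.46. The relatives of p120-catenin moved in both directions. *Pkp4* (p0071) was at 41.0 to 86.1 CPM in bulge and 125 to 183 in SCA-1+ libraries and rose by 1.28 ± 0.17 (adjusted p = 0.000848). *Arvcf* was at 19.7 to 40.1 in bulge and 7.10 to 19.8 in SCA-1+ libraries and fell by 1.19 ± 0.24 (adjusted p = 0.00771; 0.0515 without tdTneg SCA-1+ replicate 1). *Ctnnd2* (δ-catenin) rose by 1.15 ± 0.27 (adjusted p = 0.0168), with 15 to 38.3 CPM in tdT+ SCA-1+ but 10.6 and 13.1 in tdTneg SCA-1+ against 5.90 to 11.5 in bulge libraries. This call was lost without tdTneg SCA-1+ replicate 2 (adjusted p = 0.0602) and with limma voom (0.96, adjusted p = 0.0528). *Jup*, which can take the place of β-catenin at the cadherin tail and also serves desmosomes, was at 904 to 1401 CPM in bulge and 1493 to 2594 in SCA-1+ libraries. These did not overlap, and its log2 fold change of 0.67 ± 0.17 (adjusted p = 0.0207) passed the adjusted p but not the fold threshold.

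Of 15 actin linkers and junction partners, 1 was lower and 0 were higher, near the share of all tested genes (6.79% lower and 4.77% higher). By adjusted p alone 8 passed, beside 19.3% of all tested genes, and leaving out 1 library gave 0 to 3 calls. *Afdn* (afadin, which ties nectins to actin) was at 722 to 1120 CPM in bulge and 289 to 634 in SCA-1+ libraries and fell by 1.04 ± 0.15 (adjusted p = 0.00142). The fold was under the threshold without tdT+ SCA-1+ replicate 2 (−0.96) or tdTneg SCA-1+ replicate 1 (−0.93). *Actn1* (α-actinin-1), singled out after its values were seen, was at 119 to 154 CPM in tdT+ SCA-1+ but 356 and 597 in tdTneg SCA-1+ libraries and 368 to 612 in bulge. It was lower with tdT in SCA-1+ cells by a log2 fold change of −1.85 ± 0.22 (adjusted p = 0.00243), and the difference of −1.31 ± 0.30 to the effect in bulge did not pass (adjusted p = 0.1).
Neither the 8 genes of cadherin turnover and cleavage nor the 9 of the β-catenin destruction complex held a called gene between the populations, with 4 and 2 passing the adjusted p alone. The most abundant were *Rab11a*, which recycles cadherin to the surface (0.82 ± 0.14, adjusted p = 0.00359), and the kinase gene *Csnk1a1* (0.47 ± 0.12, adjusted p = 0.0220). *Axin2*, a destruction complex member that WNT signalling induces, was at 58.4 to 97.5 CPM in tdT+ SCA-1+ and 35.7 and 44.1 in tdTneg SCA-1+ libraries (1.08 ± 0.26, adjusted p = 0.0708). It is named after its values were seen. For *Actn1* and *Axin2* in SCA-1+ cells, the endothelial sum was 29.8 to 57.9 CPM with tdT and 1466 and 1556 without, and the T cell sum 286 to 761 and 71.6 and 91.1, and their part was not tested.

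Among 10 nuclear partners of catenins 2 were lower and 0 higher, and both are TCF factors. *Tcf7l1* (TCF3), known as a factor of bulge SC, was at 25.01 to 63.2 CPM in the 6 bulge libraries, at 3.04, 3.29 and 3.51 in tdT+ SCA-1+ and at 31.5 and 44.8 in tdTneg SCA-1+ libraries. It fell by 2.03 ± 0.19 between the populations (adjusted p = 0.000206), with −3.50 ± 0.26 within tdT+ cells (adjusted p = 0.000169) and −0.56 within tdTneg cells. Its tdT effect differed between the populations by −2.94 ± 0.36 (adjusted p = 0.00988; 0.0680 without tdTneg SCA-1+ replicate 2). *Tcf7l2* (TCF4) was at 50.6 to 77.6 CPM in bulge and 17.3 to 44.4 in SCA-1+ libraries and fell by 1.08 ± 0.16 (adjusted p = 0.00161; a fold of −0.96 without tdT+ SCA-1+ replicate 2).
No repressor of *Cdh1* was called between the populations among 6 tested of 7 (1 by adjusted p alone, 2 at an unadjusted p under 0.05). The most abundant was *Tcf3* (E2A), at 111 to 206 CPM (−0.44 ± 0.12, adjusted p = 0.0340). Of 7 epithelial regulators 1 was called, *Ovol1*, which rose by 1.17 ± 0.22 (adjusted p = 0.00537). Summed levels of suprabasal markers were 488 to 4062 CPM in bulge and 3019 to 9870 in SCA-1+ libraries, those of Langerhans cell markers 16 to 347 and 268 to 684, those of melanocyte markers 25.7 to 65.4 and 6.19 to 35.7, and those of fibroblast markers 87.8 to 297 and 26.9 to 478. Those of T cell markers were 4.10 to 65.9 CPM in bulge and 71.6 to 761 in SCA-1+ libraries, without overlap. The part of these sums in the differences of the junction genes was not tested.

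**Figure D5:**
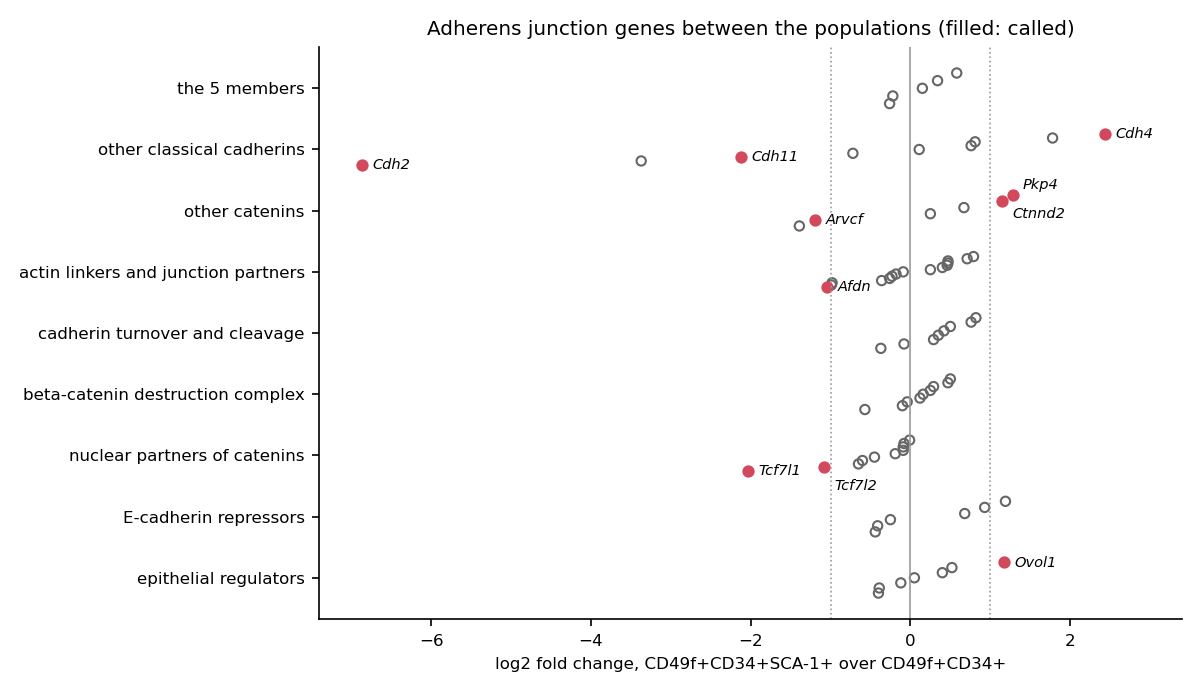
Log2 fold change of SCA-1+ over bulge cells (x axis) for each tested gene of the 5 members and 8 related lists (rows), with called genes filled and named and dotted lines at a 2-fold change either way. The 5 members lie between −0.26 and 0.58, whereas *Cdh2*, *Cdh11*, *Cdh4*, *Arvcf*, *Pkp4*, *Ctnnd2*, *Afdn*, *Tcf7l1*, *Tcf7l2* and *Ovol1* were called.

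For each member, the 5 genes whose log2 CPM followed it most closely over the 11 libraries were taken from 10109 genes with a mean log2 CPM over 3, as a description only, since the points share libraries and normalisation. *Cdh1* was followed by *Tyro3* (Pearson r = 0.97), *Stk40*, *St14* (matriptase), *Cachd1* and *Traf6*, all at r of at least 0.95. *Cdh3* was followed by *Mex3a* and *Ptk7* (both r = 0.95), *Foxo4*, *Nfix* and *Cwc25* (from 0.91), and not by a hair germ marker. The nearest to *Ctnnb1* were *Ctbp2* (r = 0.96), *Ift122*, *Cd151*, *Specc1* and *Pnp*. *Kat7* (r = 0.97), *Klhl18*, *Smap1*, *Plcd1* and *Fam168a* lay nearest to *Ctnna1*, and *Taok1* (r = 0.97), *Pip5k1a*, *1810013L24Rik*, *Taf1* and *Ndor1* nearest to *Ctnnd1*. No member was among the 5 nearest genes of another member.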

How the data were processed

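The deposited files hold 1 raw count per Ensembl gene and library, made by the authors with STAR and featureCounts on mm10 (Ensembl 96), and the study's own comparisons used DESeq2 1.18.1 (version per the labels). The strand setting and the treatment of reads on overlapping genes are not given in the sources used here. Groups and replicate numbers came from the sample labels, and the single row outside the Ensembl genes (at most 0.0307% of counts) was kept out of totals and tests. Symbols, positions and exon lengths were taken from GENCODE M21, the same annotation on GRCm38, which matched all 55536 identifiers.

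Counts of all 11 libraries were fitted together in edgeR 4.0.16 (R 4.3.3) with TMM normalisation, filterByExpr and 1 mean per group, and tested with the quasi-likelihood F-test. Normalised CPM are counts scaled by the TMM-adjusted library size. Calls needed a Benjamini-Hochberg adjusted p-value (over all tested genes) below 0.05 together with a log2 fold change past 1 in either direction. Intervals are 95% and SE are from the fit. The log2 ratio of *Cdh3* to *Cdh1* used counts plus 0.5 and a two-sided exact permutation test. Depth was 17409131 to 46542177 counts, and the median half-width of the interval was 0.71 between populations, 0.94 for tdT in bulge and 1.04 for tdT in SCA-1+ cells. On simulated data with the same groups, 20307 genes and 200 changed genes, the fit between populations recovered 86.1% of genes over 30 CPM changed by 1.5 on the log2 scale and 91.7% of those changed by 2. For tdT in bulge these shares were 66.7% and 95.8%, and for tdT in SCA-1+ cells 36.1% and 83.3%. Over changed genes of any level they were 42% and 36% between populations, 28% and 30% for tdT in bulge, and 14% and 22% for tdT in SCA-1+ cells. Smaller changes, such as the fitted values of the members (at most 0.67 in size), are not covered by these shares.

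Alternatives were DESeq2 1.42.0, limma 3.58.1 voom with sample weights, RLE size factors, calls by adjusted p alone, a minimum of 1 count in any or 10 in every library, a block on replicate number, a fit to the compared groups only, omission of each library and, for the ratio, a pseudocount of 5 and exchange of labels within tdT status. The members and lists were chosen with earlier results of these data known. Of the related lists, at most 4 called genes each are named, or the most abundant gene where none was called. Besides these, the uncalled *Cdh5*, *Cdh24*, *Jup*, *Msx2* and *Shh* are named. *Actn1*, *Axin2* and *Zeb2*, named after their values were seen, are marked so. The replicate number was read as a shared pool of mice. For 15 same-numbered pairs, deviations from the group means correlated across genes with a median of 0.08 (−0.42 to 0.59), against −0.02 over 30 other pairs. Replicates were separate isolates, each from 2 mice, and the spread within a group is that between such pools. Libraries of different groups with the same replicate number share a pool on this reading. The main fit and the unpaired ratio test treated them as independent. Sequences of the cadherin promoters and of proteins were not used here.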

Additional observations from a re-analysis of the deposited data

Results flagged for a closer look

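Among 12 sets of 5 or 6 libraries examined (each member and the *Cdh3* to *Cdh1* ratio in each population), 1 held a library far from the others (the rate expected by chance is not given). This was *Cdh1* in tdT+ SCA-1+ replicate 3, at 1733 normalised CPM against 810 to 1008 in the other 4 SCA-1+ libraries. Without it the log2 fold change of *Cdh1* between the populations was 0.39 in place of 0.58.

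The effect of tdT differed between the populations for *Tcf7l1* (−2.94 on the log2 scale, adjusted p = 0.00988 for the interaction in edgeR) and for the bulge marker and sorting antigen gene *Cd34* (−3.31, adjusted p = 0.0132). No cadherin or catenin passed the correction for this difference, and *Cdh5* (−6.79, unadjusted p = 0.00442, adjusted p = 0.169 in edgeR) had the lowest unadjusted p among the other cadherins. *Cd34* was at 22.4 to 35.7 CPM in tdT+ SCA-1+ and at 320 and 383 in tdTneg SCA-1+ libraries. The endothelial marker sums of the same libraries were 29.8 to 57.9 CPM and 1466 and 1556 CPM, and the hair germ sums 75.6 to 104 and 158 and 221. In SCA-1+ cells 2 of 6 bulge markers and 1 of 6 hair germ markers were called lower with tdT. The medians of these lists were −1.27 and −1.43 on the log2 scale, and 2.31% of all tested genes were called. The part of the cells that these markers stand for was not tested.

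Outside the genes, the row without an Ensembl identifier reached 307 CPM (307.4) in a tdT+ library, against at most 4.89 CPM in tdTneg libraries. The library labelled tdT+ bulge replicate 2 was at 2.05 CPM, below all tdTneg libraries (from 2.54).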

How the results depend on the processing

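No member was called in any of the 6 comparisons under any alternative run. Of 560 member log2 fold changes over the alternatives, 527 kept their direction and 33 changed sign, all of them for values near 0. The 527 include 30 values of the alternative without a fold threshold, which changes only the calls and repeats the main fit. The sign changes were for *Ctnnd1* by tdT in bulge (0.02 with DESeq2, 0.02 with RLE size factors, 0.04 with at least 10 counts in every library, and −0.23 to 0.05 leaving out 1 library) and in SCA-1+ cells (−0.08 with the replicate block, −0.13 to 0.28 leaving out 1 library), and for *Cdh3* between populations within tdT+ cells (−0.07 to 0.35 leaving out 1 library). For the difference in the tdT effect, *Ctnnb1* was at −0.08 with DESeq2 and with RLE, −0.03 with at least 1 count in any library, −0.10 with at least 10 in every library, and −0.11 to 0.15 leaving out 1 library. *Ctnna1* was at −0.07, −0.07, −0.02 and −0.10 under the same settings and −0.01 with the block (−0.04 to 0.16 leaving out 1 library). *Cdh1* was at −0.01 with at least 10 counts and −0.11 with the block (−0.24 to 0.39), and *Ctnnd1* at −0.05 with the block (−0.06 to 0.32). RLE moved the median of all genes by −0.12 for that comparison and by less than 0.1 elsewhere.

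With the replicate number as a block the count of members called stayed at 0 in all comparisons, and *Ptch1* (−0.91) was the only junction or hair germ gene named above to lose its call. The difference in the *Cdh3* to *Cdh1* ratio between populations stayed at −0.80 with a pseudocount of 5, and ran from −0.93 to −0.68 leaving out 1 library. Pairing by replicate number changes only the p-value (exact permutation test, adjusted p = 0.111 over 3 tests, against 0.0325 without the pairing). By tdT in SCA-1+ cells the difference in this ratio ran from −0.27 to 0.04 leaving out 1 library. A fit of only the groups compared uses the same libraries, and so gives no other value, for the populations and for the difference in tdT effect. Leaving out a tdTneg SCA-1+ library leaves 1 in that group, assumed to vary like the others. Of the actin linkers, 0 to 3 were called under alternatives with the fold threshold and 8 without it. *Ctnnd1* had 888 to 3572 counts per library, and the handling of its shared exons is not given in the sources used here.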
